A study of Mus musculus with 20 samples.

Results

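The genes described here encode secreted and membrane-bound proteases of the extracellular matrix and their inhibitors. They are the protein-coding rows of the deposited mouse table whose symbol is Mmp with a number (23 genes), starts with Adamts (19 proteases and 5 Adamtsl genes) or is *Timp1*, *Timp2*, *Timp3* or *Timp4*. These 51 genes, among 25869 rows in all, were taken by name, and none was left out for its values. Matrix metalloproteinases (MMPs) are zinc enzymes that cut collagens, proteoglycans and other matrix proteins, most of them secreted and some held in the plasma membrane. ADAMTS proteases are secreted zinc enzymes with thrombospondin repeats that cut large proteoglycans such as aggrecan and versican or trim the ends of procollagens, while the related ADAMTS-like (Adamtsl) proteins lack the protease domain. Tissue inhibitors of metalloproteinases (TIMPs) bind the active site of these enzymes, and fibroblasts are a main source of all of these groups.

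The RNA-seq series holds 20 mouse libraries, of which 10 come from mouse embryonic fibroblasts (MEFs) and 10 from B cell malignancies that serve here as a contrast. The MEFs were grown from embryos that were wildtype (WT, 2 libraries) or carried a single copy of a CRISPR activation cassette (dCas9a-SAM KI/+), in which a catalytically dead Cas9 fused to VP64 and an MS2-p65-HSF1 activator are expressed from *Rosa26* under the CAG promoter in all cells. The dCas9a-SAM KI/+ MEFs were without an sgRNA (2 libraries), with a non-targeting sgRNA (sgNT, 2 libraries) or with sgRNAs against the Bcl-2 promoter (sgBcl-2, 4 libraries), and all of them carried the cassette. The tumours were 6 lymphoma cell lines (4 IgM+ and 2 IgM-) and 2 primary IgM+ lymphomas of genotype Eµ-Myc/dCas9a-SAM KI/+/sgBcl-2, in which the Eµ enhancer drives Myc in B cells and which arose in irradiated mice given transduced progenitor cells, and 2 preB acute lymphoblastic leukaemias (preB-ALL) driven by BCR-ABL1 without the cassette, whose titles name Cre and Erg alleles (P190CreERLSLErg and P190RagCreErg). The titles number the MEFs 1 and 2 in each MEF group, called line 1 and line 2 here, and the 4 sgBcl-2 libraries are a pair for each number. The labels do not state that a number is the same line in the 3 dCas9a-SAM KI/+ groups. The labels do not say whether such a pair differs by guide or by culture, so that p-values measure the spread between these libraries, which may be technical. In the sentences on MEFs the values stand in the order line 1, line 2, and for sgBcl-2 the first pair is line 1 and the second pair line 2. WT lines come from other embryos than the dCas9a-SAM KI/+ lines.

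Values are in CPM, the reads of a gene for every 1e+06 reads counted on all listed genes. The MEF libraries held 18854501 to 26560233 reads, the lymphoma lines 20083235 to 26678417, the primary tumours 20053004 and 22827729, and the preB-ALL libraries 12474885 and 14970269. A count of 3 reads, the smallest level read as present here, corresponds to between 0.113 and 0.159 CPM in a MEF library. The targeted gene *Bcl2* was at 13.4 and 13.7 CPM in the sgNT MEFs and 67.9, 48.6, 46.8 and 71.8 CPM in the sgBcl-2 MEFs, with no overlap, and between 99.4 and 165 CPM in the lymphoma lines. Summed over 12 fibroblast marker genes, 9 MEF libraries held between 18456 and 25494 CPM. The second WT library stood apart, with 8365 CPM of fibroblast markers and 231 CPM of 8 macrophage markers, each of them at 1 CPM or more, against 5.63 to 9.06 CPM in the other MEF libraries. B cell markers summed to between 1153 and 10586 CPM in the lymphoma and leukaemia libraries and to at most 25.2 CPM in MEFs. The numbers of members called against WT MEFs are given below with and without that library.

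Of the 51 genes, 23 had a mean of 10 CPM or more over the 10 MEF libraries, 8 had a mean between 1 and 10 CPM and 20 lay below 1 CPM. Without the second WT library the numbers were 23, 7 and 21, and the mean of *Mmp12*, 13.1 CPM over all 10, was 0.0824 CPM over the other 9. In the lymphoma lines 7 had a mean of at least 1 CPM, in the primary tumours 6 and in preB-ALL 23. Per kilobase of exon, the scale on which genes can be set beside each other, the inhibitors came first in MEFs, with *Timp2* at 845, *Timp1* at 355 and *Timp3* at 221 CPM per kb as means over the 10 libraries. They were followed by *Mmp14*, the membrane-type 1 MMP that cuts collagen at the cell surface and activates MMP2, at 82.8 and by *Mmp2*, a gelatinase, at 81.1 CPM per kb. The next genes in that order were *Adamts1* at 73.7, *Adamts5* at 30.1, *Adamtsl5* at 29.3, *Mmp23* at 20.4 and *Adamtsl4* at 15.9 CPM per kb. The order of these 10 genes was the same without the second WT library. Per kb, *Mmp14* ranged from 58.5 to 107 and *Mmp2* from 48.5 to 128 over the 10 libraries, so that they overlapped, and *Mmp14* was the higher of the pair in 6 of the 10.

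**Figure D1:**
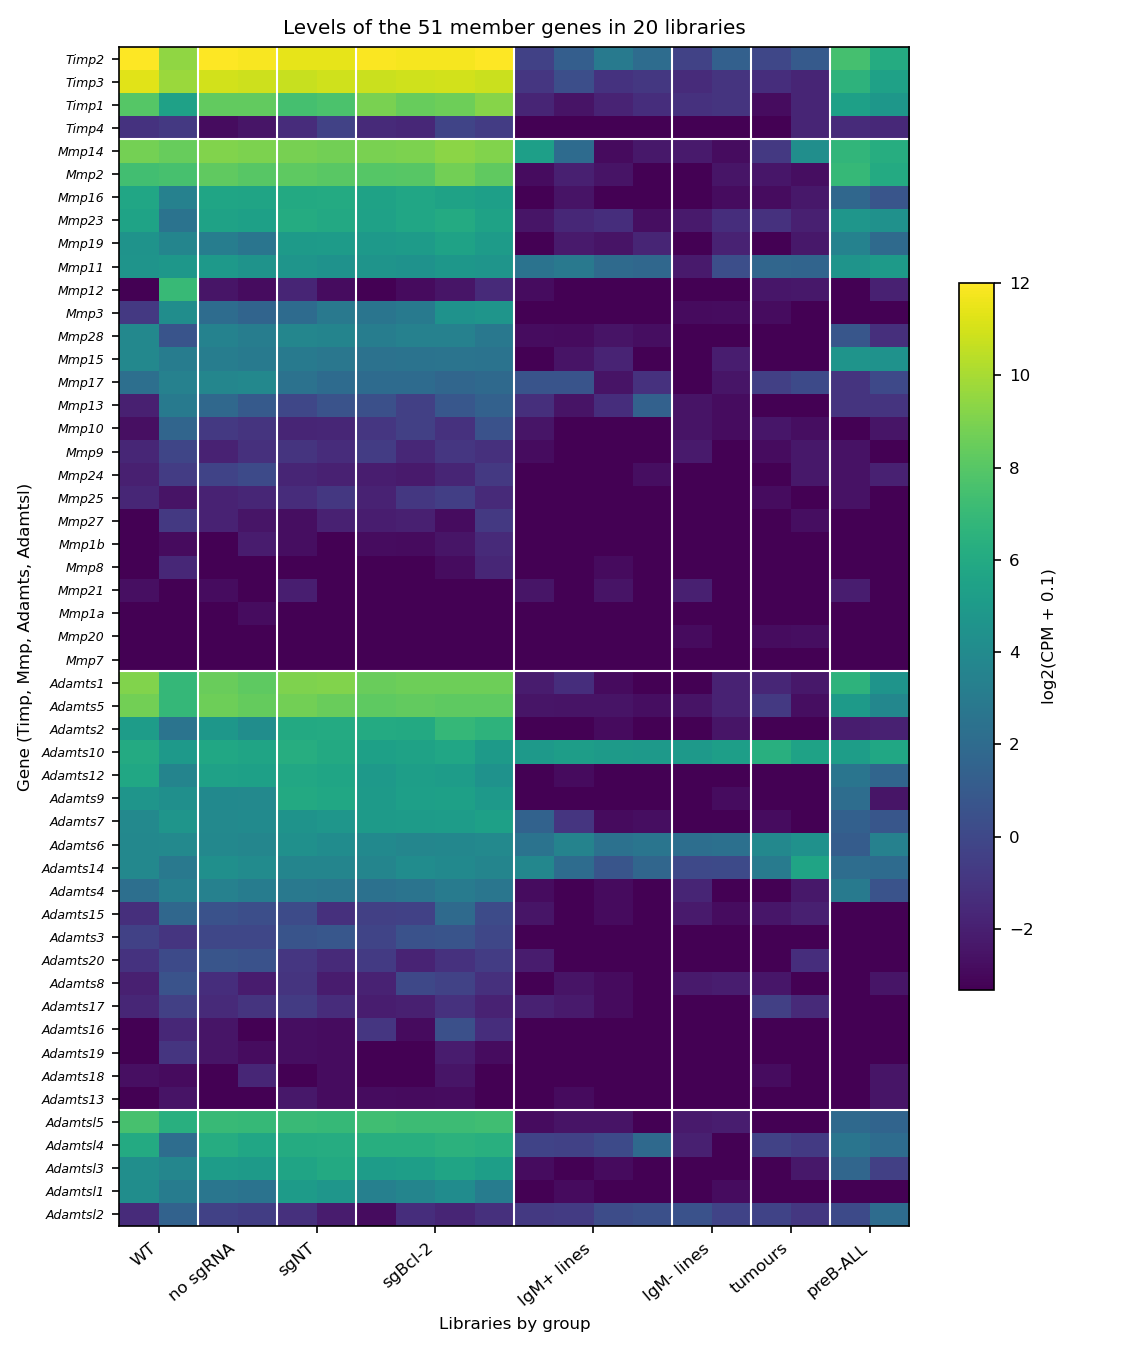
Level of the 51 protease and inhibitor genes (rows, by family) in the 20 libraries (columns, by group), coloured by log2(CPM + 0.1). The upper rows of each family are high in MEFs, the second WT library differs from the first, and the lymphoma libraries are dark for all but a few rows. Both preB-ALL libraries lie between for many of these rows, while Mmp15 is higher there than in any MEF library.

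Differences between groups were tested with limma on log2(CPM + 0.1) after TMM scaling, a correction for library composition, over all genes that passed a filter on low counts, with Benjamini-Hochberg adjustment and a threshold of 0.05. A log2 difference is on that scale and understates the change of genes near 0. The first question was what the Bcl-2 sgRNAs changed beyond a non-targeting sgRNA. In sgBcl-2 MEFs against sgNT MEFs, 37 of the 51 genes passed the filter and 12 of them were called, 5 higher and 7 lower, a share of 32.4% beside 10.8% of all 14676 genes tested (6.61% higher and 4.24% lower). The higher genes were *Timp1*, *Timp2*, *Adamts7*, *Adamtsl4* and *Adamtsl5*, and the lower ones were *Adamts1*, *Adamts5*, *Adamts9*, *Adamts10*, *Adamts12*, *Adamtsl1* and *Mmp16*. By family, 2 of 4 TIMP genes tested were higher, 2 of 4 Adamtsl genes were higher and 1 was lower, 1 of 15 ADAMTS genes was higher and 5 were lower, and 1 of 14 MMP genes was lower. The median log2 difference of the 37 genes was 0.15, and that of all genes -0.01. No gene of the family was called when either sgNT library was left out, where 156 and 198 genes were called in all, so that these 12 calls rest on both sgNT libraries together, and 4 were called without the first line 1 sgBcl-2 library. With all 10 MEF libraries in 1 fit the count was also 0 (edgeR and limma-voom on the recovered reads called 12 each when only the 6 libraries were fitted).

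The second question was what the delivery of a non-targeting sgRNA changed in dCas9a-SAM KI/+ MEFs. In sgNT MEFs against MEFs without an sgRNA, 33 of the 51 genes passed the filter and 22 were called, 13 higher and 9 lower, a share of 66.7% beside 41.1% of all 14655 genes tested (20.3% higher and 20.9% lower). The higher genes were *Adamts1*, *Adamts2*, *Adamts3*, *Adamts6*, *Adamts7*, *Adamts9*, *Adamts10*, *Adamts12*, *Adamtsl1*, *Adamtsl3*, *Mmp16*, *Mmp19* and *Mmp23*, and the lower ones were *Timp1*, *Timp2*, *Mmp13*, *Mmp14*, *Mmp17*, *Mmp24*, *Adamts4*, *Adamts14* and *Adamts20*. Without *Mmp24*, which passed the filter only through the libraries without an sgRNA, 21 were called. The median log2 difference was 0.10 over the 33 genes and 0.00 over all genes. With all 10 MEF libraries in 1 fit 4 of the genes were called, and *Adamts9*, *Adamtsl1*, *Mmp17* and *Mmp19* kept their calls under each of the 12 alternatives tried. The sgRNA and the lentivirus that carried it differ together between these groups and cannot be told apart. Both comparisons use the same 2 sgNT libraries, and the values of each are given side by side below.

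Marker sums moved with both comparisons. The 7 markers of cartilage and bone summed to 784 and 599.7 CPM without an sgRNA, 163 and 195 CPM with sgNT and between 102 and 127 CPM with sgBcl-2. Epithelial markers were at 9.48 and 15.9 CPM without an sgRNA, 0.487 and 0.662 CPM with sgNT and between 1.54 and 2.87 CPM with sgBcl-2. Smooth muscle markers summed to 5553 and 6795 CPM without an sgRNA, 5277 and 4357 CPM with sgNT and between 2953 and 3979 CPM with sgBcl-2. Smooth muscle and cartilage and bone sums thus fell without overlap at each step, and epithelial sums were lowest with sgNT. In sgNT MEFs the largest part of the cartilage and bone sum was *Col2a1*, at a mean of 103 CPM. *Sox9* was at 46.8 and *Runx2* at 27.1 CPM there. A fall of the sum thus does not mean that each marker fell. Fibroblast markers summed to 21022 and 18456 CPM without an sgRNA, 20364 and 21683 CPM with sgNT and between 21780 and 25494 CPM with sgBcl-2, where they lay above both sgNT libraries. Endothelial markers were at 13.7 and 15.8 CPM without an sgRNA, 15.5 and 18.7 CPM with sgNT and between 7.12 and 11.7 CPM with sgBcl-2. The part of these markers in the results was not tested, and in bulk RNA fewer cells of a type and less RNA per cell cannot be told apart.

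Among the inhibitors, TIMP1 is a secreted and inducible protein that binds most MMPs. *Timp1* was at 251 and 44.3 CPM in WT MEFs, 318 and 321 CPM without an sgRNA, 179.6 and 205 CPM with sgNT, and 492.9, 343, 393 and 599 CPM with sgBcl-2. The sgNT libraries were the lowest of the 8 cassette-bearing libraries, the sgBcl-2 libraries were the highest, and these groups did not overlap. Between sgBcl-2 and sgNT the level rose 2.47-fold (log2 difference 1.31 ± 0.21 (SE), adjusted p = 0.0094), and between sgNT and no sgRNA the log2 difference was -0.75 ± 0.091 (SE), adjusted p = 0.000621. TIMP2 inhibits MMPs and also takes part in the activation of MMP2 by MMP14. *Timp2* stood at 4008 and 703 CPM in WT MEFs, 4059.6 and 3661 CPM without an sgRNA, 2741 and 2769 CPM with sgNT, and 3859, 3513, 3489 and 4100.3 CPM with sgBcl-2. Again both sgNT libraries were below every other dCas9a-SAM KI/+ library, and the second WT library was far below the first. The log2 difference was 0.53 ± 0.12 (SE), adjusted p = 0.0314 for sgBcl-2 against sgNT and -0.50 ± 0.13 (SE), adjusted p = 0.0198 for sgNT against no sgRNA.

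TIMP3 binds to the matrix and also inhibits several ADAMTS proteases. For *Timp3* the libraries read 2529.5 and 838 CPM (WT), 1949 and 1821 CPM (no sgRNA), 1693 and 1873 CPM (sgNT), and 1745, 1871, 1944 and 1720.1 CPM (sgBcl-2). Apart from the second WT library these overlapped between all cassette-bearing groups, and neither comparison called the gene (adjusted p = 0.451 and 0.539 with limma). *Timp4* was low throughout, with 0.371 and 0.494 CPM in WT MEFs, 0.0431 and 0.086 CPM without an sgRNA, 0.292 and 0.703 CPM with sgNT, and 0.259, 0.226, 0.767 and 0.557 CPM with sgBcl-2. It was the only inhibitor gene near the level of 3 reads in MEFs, and its log2 difference between sgBcl-2 and sgNT was -0.07 ± 0.51 (SE), adjusted p = 0.942. Summed over the 4 genes, TIMP reads divided by the reads of all 42 MMP and ADAMTS genes gave a ratio of 3.18 and 3.36 without an sgRNA, 2.05 and 2.28 with sgNT, and 3.39, 2.94, 2.52 and 3.23 with sgBcl-2. The sgNT pair had the lowest ratios of the cassette-bearing MEFs, and *Timp2* and *Timp3* made up between 90.7% and 97.2% of the TIMP reads in each MEF library.

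**Figure D2:**
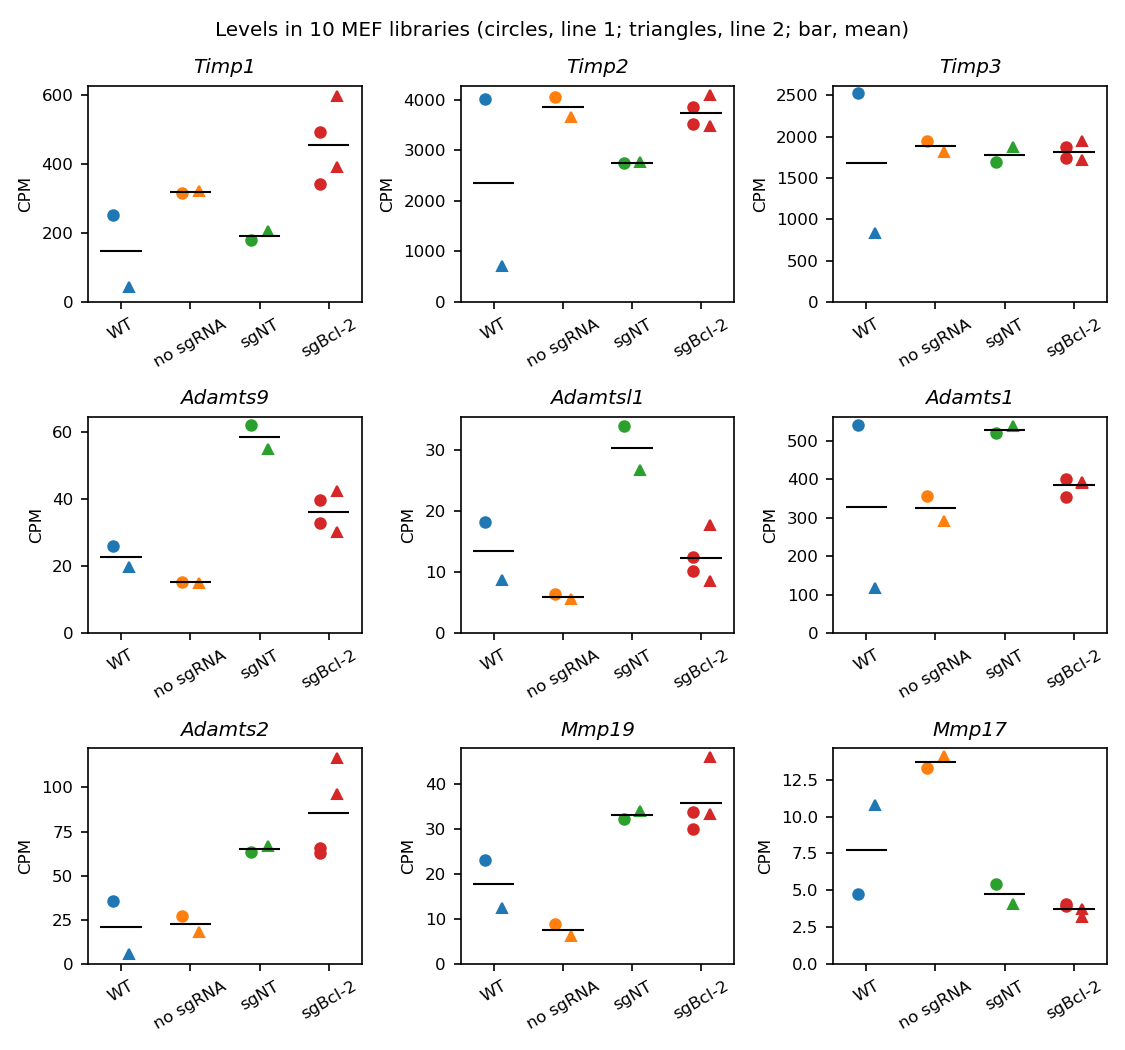
CPM (linear axis from 0) of 9 protease and inhibitor genes in the 10 MEF libraries by group, with circles for MEF line 1, triangles for line 2 and a bar at the group mean. Timp1 and Timp2 are lowest in sgNT among the cassette-bearing groups, Adamts9 and Adamtsl1 are highest there, and Mmp17 is high only without an sgRNA and in the second WT library.

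Of the membrane-bound MMPs, *Mmp14* stood at 453 and 349 CPM in WT MEFs, 542 and 507 CPM without an sgRNA, 463 and 432 CPM with sgNT, and 489, 514, 636 and 549.8 CPM with sgBcl-2. The sgNT libraries were below the libraries without an sgRNA and below all sgBcl-2 libraries. The log2 difference between sgNT and no sgRNA was -0.24 ± 0.074 (SE), adjusted p = 0.0326, and for sgBcl-2 against sgNT it was 0.37 ± 0.10 (SE), adjusted p = 0.0542. Both outcomes changed in limma with the title number as a replicate block, a pairing that the labels do not state (adjusted p = 0.0809 and 0.028). *Mmp16*, which encodes a further membrane-type MMP, read 53.0 and 10.4 CPM (WT), 51.5 and 49.97 CPM (no sgRNA), 64.1 and 65.6 CPM (sgNT), and 44.9, 52.7, 45.8 and 39.3 CPM (sgBcl-2). It was highest with sgNT, without overlap with either neighbour group, and the log2 difference was 0.34 ± 0.071 (SE), adjusted p = 0.00748 for sgNT against no sgRNA and -0.42 ± 0.10 (SE), adjusted p = 0.0336 for sgBcl-2 against sgNT. *Mmp17*, which encodes a membrane-type MMP held by a lipid anchor, was at 4.72 and 10.8 CPM in WT MEFs, 13.3 and 14.1 CPM without an sgRNA, 5.41 and 4.06 CPM with sgNT, and 4.06, 3.92, 3.19 and 3.73 CPM with sgBcl-2. All 6 libraries with an sgRNA were below both libraries without one, the log2 difference of sgNT against no sgRNA was -1.54 ± 0.16 (SE), adjusted p = 0.00031, and sgBcl-2 against sgNT gave -0.24 ± 0.18 (SE), adjusted p = 0.402. *Mmp24*, another membrane-type gene, was low at 0.159 and 0.57 CPM in WT MEFs, 0.733 and 0.989 CPM without an sgRNA, 0.195 and 0.166 CPM with sgNT, and 0.13, 0.113, 0.202 and 0.472 CPM with sgBcl-2. It had 17 and 23 reads without an sgRNA and 4 and 4 with sgNT, under the filter's level of 10 reads, so that it was tested only through the libraries without an sgRNA and could only be lower with sgNT. *Mmp15* was at 14.1 and 8.62 CPM in WT MEFs, 8.88 and 7.44 CPM without an sgRNA, 7.94 and 6.54 CPM with sgNT, and 5.27, 5.69, 5.82 and 5.66 CPM with sgBcl-2. The sgBcl-2 libraries were the lowest of the MEFs, and the log2 difference to sgNT was -0.27 ± 0.13 (SE), adjusted p = 0.22, which was not called. *Mmp25*, the remaining membrane-type member, ranged over 0.076 to 0.606 CPM in MEFs.

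Among the secreted MMPs, *Mmp2* showed 164 and 185 CPM in WT MEFs, 312 and 256 CPM without an sgRNA, 299.6 and 272 CPM with sgNT, and 251, 264, 430.0 and 300.3 CPM with sgBcl-2. These values overlapped between all dCas9a-SAM KI/+ groups, and the log2 difference was 0.18 ± 0.19 (SE), adjusted p = 0.561 for sgBcl-2 against sgNT and 0.00 ± 0.10 (SE), adjusted p = 0.995 for sgNT against no sgRNA. *Mmp19*, which encodes a secreted MMP of broad specificity, was at 23.1 and 12.5 CPM in WT MEFs, 8.96 and 6.19 CPM without an sgRNA, 32.3 and 34.1 CPM with sgNT, and 30.02, 33.8, 46.1 and 33.4 CPM with sgBcl-2. All 6 libraries with an sgRNA lay above all other MEF libraries. The rise from no sgRNA to sgNT was 4.36-fold (log2 difference 2.12 ± 0.17 (SE), adjusted p = 9.91e-05), while sgBcl-2 against sgNT gave 0.18 ± 0.15 (SE), adjusted p = 0.461. *Mmp23*, an MMP with an unusual transmembrane prodomain, read 48.1 and 5.59 CPM (WT), 46.3 and 42.1 CPM (no sgRNA), 68.8 and 59.7 CPM (sgNT), and 43.5, 53.4, 65.0 and 44.8 CPM (sgBcl-2). Its sgNT libraries were above those without an sgRNA (log2 difference 0.52 ± 0.083 (SE), adjusted p = 0.0022), and its sgBcl-2 libraries overlapped with both. *Mmp11*, which encodes stromelysin-3, was at 24.0 and 27.2 CPM in WT MEFs, 29.8 and 23.0 CPM without an sgRNA, 25.0 and 22.5 CPM with sgNT, and 24.1, 22.4, 27.9 and 25.0 CPM with sgBcl-2. Its cassette-bearing groups overlapped. *Mmp28*, which encodes epilysin, was at 14.1 and 1.48 CPM in WT MEFs, 11.2 and 8.90 CPM without an sgRNA, 13.0 and 11.8 CPM with sgNT, and 9.03, 10.4, 10.4 and 6.90 CPM with sgBcl-2. Its sgNT libraries were the highest of the cassette-bearing MEFs, but neither *Mmp11* nor *Mmp28* was called between them (adjusted p = 0.188 for *Mmp28* in sgBcl-2 against sgNT with limma).

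**Figure D3:**
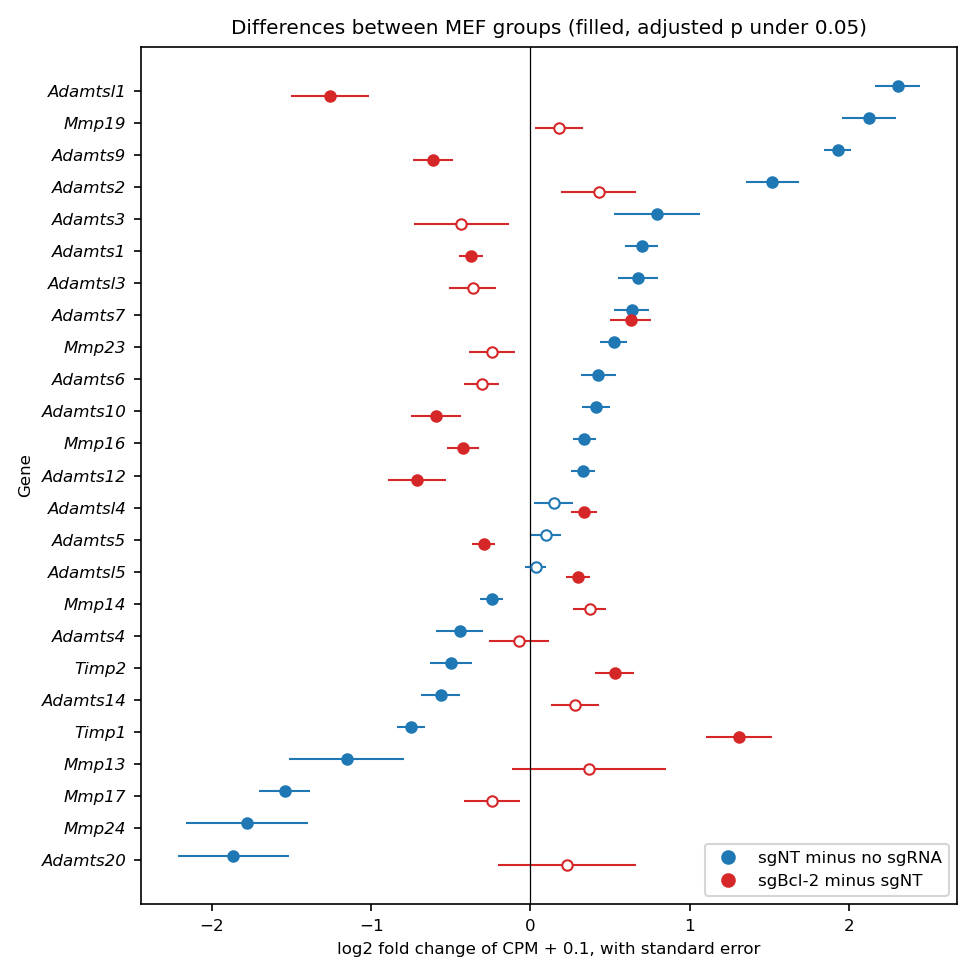
Log2 difference with its standard error (x axis) for the 25 protease and inhibitor genes called in sgNT against no sgRNA or in sgBcl-2 against sgNT MEFs, in blue for sgNT minus no sgRNA and in red for sgBcl-2 minus sgNT; filled points have an adjusted p under 0.05. Adamtsl1, Adamts9 and Adamts1 have a positive blue and a negative red value and Timp1 and Timp2 the opposite, in comparisons that share the sgNT libraries.

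Of the MMP genes, 10 lie beside each other on chromosome 9, over 0.427 Mb between positions 7272514 and 7699585 of GRCm38, with no other protein-coding gene in that stretch. They encode collagenases (*Mmp13*, *Mmp8*, *Mmp1a* and *Mmp1b*), stromelysins (*Mmp3* and *Mmp10*), macrophage elastase (*Mmp12*), matrilysin (*Mmp7*), enamelysin (*Mmp20*) and *Mmp27*. The members whose MEF values differ most within the cluster, *Mmp3*, *Mmp10*, *Mmp12* and *Mmp13*, are shown with the stretch of promoter that runs from just upstream of an AP-1 element to the base before the start site, taken from RefSeq for GRCm38.p6, with the element in capitals. AP-1 factors, dimers of FOS and JUN proteins, are known regulators of MMP genes, and their element reads TGANTCA on both strands.
Mmp13: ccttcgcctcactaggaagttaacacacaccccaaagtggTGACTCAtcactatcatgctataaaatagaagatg
Mmp12: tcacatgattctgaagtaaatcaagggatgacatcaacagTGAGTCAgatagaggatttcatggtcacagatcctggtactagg
Mmp3: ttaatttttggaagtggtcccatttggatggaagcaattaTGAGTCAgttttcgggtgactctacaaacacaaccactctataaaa
Mmp10: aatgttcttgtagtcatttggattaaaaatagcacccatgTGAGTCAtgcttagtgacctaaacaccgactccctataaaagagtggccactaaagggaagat

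These stretches are chr9:7272439-7272513 (*Mmp13*), chr9:7347290-7347373 (*Mmp12*), chr9:7445736-7445821 (*Mmp3*) and chr9:7502239-7502341 (*Mmp10*), all on the plus strand. The element begins 35 bases before the start site in *Mmp13*, 44 in *Mmp12*, 46 in *Mmp3* and 63 in *Mmp10*. Within 250 bases before the start it occurred in 8 of the 10 genes of the cluster and in 0 of the 26 other members with a promoter entry, that is in 8 of 36 (22.2%), against 7.82% of 27025 mouse genes. A match is a description of these letters and does not show binding.

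The levels of the cluster were low and uneven. *Mmp3* was at 0.477 and 18.4 CPM in WT MEFs, 4.14 and 2.97 CPM without an sgRNA, 3.95 and 7.28 CPM with sgNT, and 6.22, 7.83, 22.6 and 25.0 CPM with sgBcl-2. The second WT library and the line 2 sgBcl-2 pair were the highest, and the first WT library was the lowest. Its log2 difference was 1.34 ± 0.58 (SE), adjusted p = 0.166 for sgBcl-2 against sgNT. With the title number as a replicate block, a pairing that the labels do not state, *Mmp3* was called (adjusted p = 0.00703 with limma). *Mmp13* read 0.159 and 7.94 CPM (WT), 3.49 and 1.89 CPM (no sgRNA), 0.877 and 1.41 CPM (sgNT), and 1.25, 0.64, 1.66 and 2.62 CPM (sgBcl-2). The second WT library was the highest, the libraries without an sgRNA were above those with sgNT (log2 difference -1.15 ± 0.36 (SE), adjusted p = 0.0359), and the sgBcl-2 libraries overlapped with both. *Mmp10* was at 0.053 and 3.12 CPM in WT MEFs, 0.474 and 0.387 CPM without an sgRNA, 0.195 and 0.207 CPM with sgNT, and 0.432, 0.64, 0.364 and 1.37 CPM with sgBcl-2, again highest in the second WT library, and gave 1.32 ± 0.49 (SE), adjusted p = 0.115 for sgBcl-2 against sgNT. With 4 and 5 reads in the sgNT libraries, *Mmp10* passed that filter only through the sgBcl-2 libraries, so that its direction was bound. *Mmp12*, the elastase that macrophages are known for, was at 0 and 130.2 CPM in WT MEFs, 0.0862 and 0.043 CPM without an sgRNA, 0.195 and 0.0414 CPM with sgNT, and 0, 0.0377, 0.0808 and 0.257 CPM with sgBcl-2. The second WT library alone was above 1 CPM, the library in which all 8 macrophage markers were at 1 CPM or more. That library also had the highest endothelial and epithelial marker sums of the MEFs, and a relation of any of these to *Mmp12* was not tested. *Mmp8* ranged over 0 to 0.228 CPM, *Mmp27* over 0 to 0.494 CPM, *Mmp1a* over 0 to 0.043 CPM and *Mmp1b* over 0 to 0.257 CPM in MEFs. *Mmp20* was at 0 in all 10 MEF libraries and *Mmp7* in all 20 libraries of the series.

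**Figure D4:**
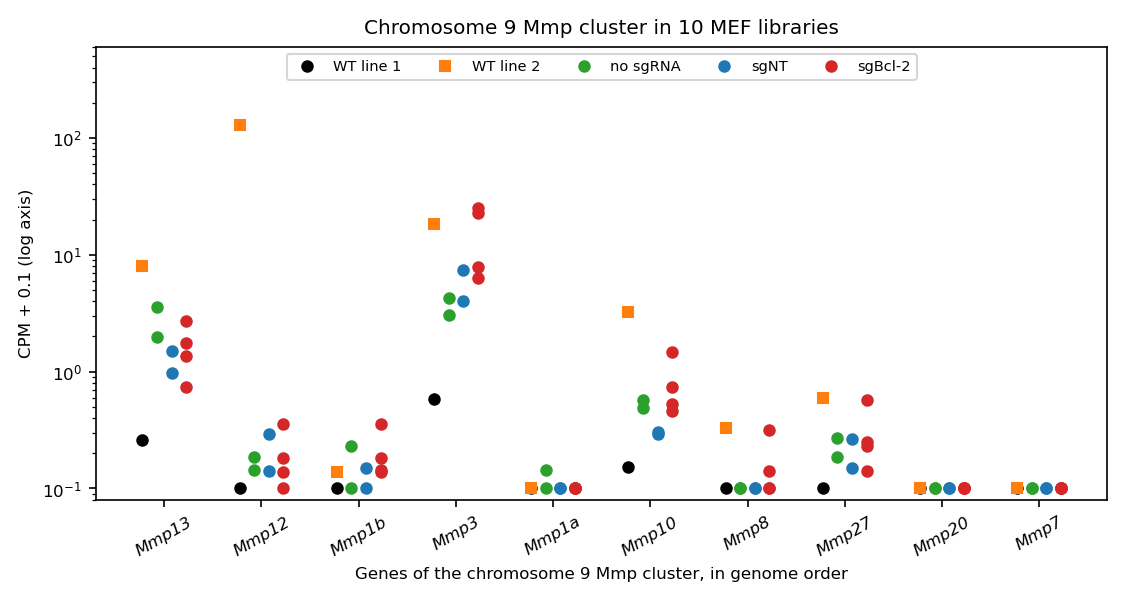
CPM + 0.1 (log axis) of the 10 MMP genes of the chromosome 9 cluster, in genome order, in the 10 MEF libraries by group; points at 0.1 are listed at 0. The second WT library is the highest for Mmp12, Mmp13 and Mmp10, with Mmp12 at 130.2 CPM, and the line 2 sgBcl-2 libraries are the highest for Mmp3.

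Among the ADAMTS proteases of proteoglycans, *Adamts1* and its neighbour *Adamts5* (55.0 kb apart on chromosome 16) were the most abundant per kilobase. *Adamts1* was at 541 and 117 CPM in WT MEFs, 358 and 291 CPM without an sgRNA, 521 and 538 CPM with sgNT, and 355, 400.2, 394 and 390.5 CPM with sgBcl-2. The sgNT libraries were above all other cassette-bearing libraries. The log2 difference was 0.70 ± 0.10 (SE), adjusted p = 0.00157 for sgNT against no sgRNA and -0.37 ± 0.075 (SE), adjusted p = 0.0202 for sgBcl-2 against sgNT. *Adamts5*, whose product is a main aggrecanase, read 424 and 116 CPM (WT), 391 and 334 CPM (no sgRNA), 419 and 365 CPM (sgNT), and 293, 317, 293 and 297 CPM (sgBcl-2). The sgBcl-2 libraries were the lowest of the cassette-bearing groups, with a log2 difference of -0.29 ± 0.071 (SE), adjusted p = 0.0344 against sgNT and 0.10 ± 0.094 (SE), adjusted p = 0.432 for sgNT against no sgRNA. *Adamts9*, which encodes a versican-cutting protease, was at 25.8 and 19.6 CPM in WT MEFs, 15.2 and 15.0 CPM without an sgRNA, 62.0 and 54.8 CPM with sgNT, and 32.8, 39.6, 42.3 and 29.97 CPM with sgBcl-2. Here the groups were fully separated, lowest without an sgRNA, intermediate with sgBcl-2 and highest with sgNT. *Adamts9* rose 3.81-fold from no sgRNA to sgNT (log2 difference 1.93 ± 0.084 (SE), adjusted p = 9.44e-06) and was 1.53-fold lower in sgBcl-2 than in sgNT (log2 difference -0.61 ± 0.13 (SE), adjusted p = 0.0221). *Adamts4*, a further aggrecanase, stood at 4.67 and 9.61 CPM in WT MEFs, 10.5 and 8.52 CPM without an sgRNA, 7.26 and 6.74 CPM with sgNT, and 5.05, 5.80, 8.20 and 6.39 CPM with sgBcl-2. Its libraries without an sgRNA were above both sgNT libraries (log2 difference -0.45 ± 0.15 (SE), adjusted p = 0.0462), and it was not called between sgBcl-2 and sgNT (adjusted p = 0.838). *Adamts20*, low at 0.371 and 0.988 CPM in WT MEFs, 1.55 and 1.38 CPM without an sgRNA, 0.439 and 0.248 CPM with sgNT, and 0.518, 0.188, 0.364 and 0.557 CPM with sgBcl-2, was above 1 CPM in the libraries without an sgRNA and below it elsewhere (log2 difference -1.86 ± 0.35 (SE), adjusted p = 0.00436 for sgNT against no sgRNA). *Adamts8* and *Adamts15*, neighbours 20.1 kb apart on chromosome 9 outside the MMP cluster, were low. *Adamts8* was at 0.159 and 1.44 CPM in WT MEFs, 0.302 and 0.129 CPM without an sgRNA, 0.39 and 0.124 CPM with sgNT, and 0.173, 0.904, 0.727 and 0.343 CPM with sgBcl-2, and *Adamts15* at 0.318 and 3.38 CPM in WT MEFs, 1.34 and 1.20 CPM without an sgRNA, 1.02 and 0.331 CPM with sgNT, and 0.648, 0.678, 3.88 and 1.03 CPM with sgBcl-2. Both were highest in the second WT library or the first line 2 sgBcl-2 library, and neither was called.

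ADAMTS2, ADAMTS3 and ADAMTS14 remove the amino-terminal propeptide of fibrillar procollagens. *Adamts2* was at 36.0 and 5.78 CPM in WT MEFs, 27.4 and 18.4 CPM without an sgRNA, 63.3 and 67.0 CPM with sgNT, and 65.5, 62.7, 117 and 96.6 CPM with sgBcl-2. All 6 libraries with an sgRNA were above all others, and the line 2 sgBcl-2 libraries were the highest. The rise from no sgRNA to sgNT was 2.86-fold (log2 difference 1.52 ± 0.17 (SE), adjusted p = 0.000393), and sgBcl-2 against sgNT gave 0.43 ± 0.24 (SE), adjusted p = 0.266. *Adamts14* moved the other way, with 14.3 and 7.26 CPM in WT MEFs, 20.1 and 16.7 CPM without an sgRNA, 12.6 and 12.4 CPM with sgNT, and 12.4, 17.8, 15.2 and 12.4 CPM with sgBcl-2. The sgNT libraries were below those without an sgRNA (log2 difference -0.56 ± 0.12 (SE), adjusted p = 0.00804), and the sgBcl-2 libraries overlapped with both. *Adamts3* was much lower at 0.689 and 0.418 CPM in WT MEFs, 0.862 and 0.86 CPM without an sgRNA, 1.51 and 1.66 CPM with sgNT, and 0.778, 1.36, 1.45 and 0.857 CPM with sgBcl-2. It was higher with sgNT than without an sgRNA (log2 difference 0.79 ± 0.27 (SE), adjusted p = 0.0485), a call kept in 2 of 12 alternatives.

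A further 4 ADAMTS genes were called. *Adamts7*, whose product cuts cartilage oligomeric matrix protein, was at 15.0 and 24.8 CPM in WT MEFs, 15.0 and 16.1 CPM without an sgRNA, 23.1 and 25.9 CPM with sgNT, and 32.5, 33.8, 34.7 and 42.2 CPM with sgBcl-2. The 3 cassette-bearing groups were in order and separated, lowest without an sgRNA and highest with sgBcl-2, and the second WT library lay within the sgNT range. The log2 difference was 0.63 ± 0.11 (SE), adjusted p = 0.00342 for sgNT against no sgRNA and 0.63 ± 0.13 (SE), adjusted p = 0.0203 for sgBcl-2 against sgNT. *Adamts10*, which encodes a protease linked to fibrillin microfibrils, read 67.3 and 31.5 CPM (WT), 54.7 and 48.4 CPM (no sgRNA), 74.7 and 64.1 CPM (sgNT), and 42.3, 45.7, 54.0 and 32.8 CPM (sgBcl-2). The sgNT libraries were the highest of the cassette-bearing groups, with 0.41 ± 0.089 (SE), adjusted p = 0.00827 against no sgRNA and -0.60 ± 0.16 (SE), adjusted p = 0.0468 for sgBcl-2 against sgNT. *Adamts12* showed 55.1 and 11.9 CPM in WT MEFs, 43.0 and 42.4 CPM without an sgRNA, 57.3 and 51.3 CPM with sgNT, and 31.3, 38.9, 34.7 and 22.1 CPM with sgBcl-2. It too was highest with sgNT and lowest with sgBcl-2 among cassette-bearing MEFs, at 0.33 ± 0.073 (SE), adjusted p = 0.00969 and -0.71 ± 0.18 (SE), adjusted p = 0.042. *Adamts6* was at 14.2 and 14.5 CPM in WT MEFs, 14.2 and 13.2 CPM without an sgRNA, 20.3 and 17.2 CPM with sgNT, and 15.2, 13.1, 13.6 and 14.9 CPM with sgBcl-2, with both sgNT libraries above all other MEF libraries (log2 difference 0.43 ± 0.11 (SE), adjusted p = 0.0183 against no sgRNA) and -0.31 ± 0.11 (SE), adjusted p = 0.109 for sgBcl-2 against sgNT. The other ADAMTS genes were low in MEFs, with *Adamts13* over 0 to 0.0975 CPM, *Adamts16* over 0 to 1.21 CPM, *Adamts17* over 0.13 to 0.646 CPM, *Adamts18* over 0 to 0.215 CPM and *Adamts19* over 0 to 0.418 CPM.

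ADAMTS-like proteins bind matrix without cutting it, and several are linked to fibrillin microfibrils. *Adamtsl1* was at 18.2 and 8.62 CPM in WT MEFs, 6.46 and 5.50 CPM without an sgRNA, 34.0 and 26.8 CPM with sgNT, and 10.2, 12.4, 17.8 and 8.53 CPM with sgBcl-2. The sgNT libraries were the highest and the libraries without an sgRNA the lowest of the MEFs. *Adamtsl1* rose 4.94-fold from no sgRNA to sgNT (log2 difference 2.30 ± 0.14 (SE), adjusted p = 3.22e-05), and was 2.40-fold lower in sgBcl-2 than in sgNT (log2 difference -1.26 ± 0.24 (SE), adjusted p = 0.0177). *Adamtsl3* read 18.9 and 12.9 CPM (WT), 35.7 and 32.9 CPM (no sgRNA), 49.4 and 62.2 CPM (sgNT), and 35.8, 38.1, 50.3 and 39.2 CPM (sgBcl-2). Its libraries without an sgRNA were below those with sgNT (log2 difference 0.68 ± 0.13 (SE), adjusted p = 0.00429), and sgBcl-2 against sgNT gave -0.36 ± 0.15 (SE), adjusted p = 0.143. *Adamtsl4* was at 65.2 and 4.33 CPM in WT MEFs, 71.2 and 54.6 CPM without an sgRNA, 67.5 and 72.2 CPM with sgNT, and 79.1, 78.7, 92.1 and 81.9 CPM with sgBcl-2. The sgBcl-2 libraries were above both other cassette-bearing groups, with a log2 difference of 0.34 ± 0.082 (SE), adjusted p = 0.0358 against sgNT, while the libraries with sgNT and without an sgRNA overlapped. *Adamtsl5* was at 187 and 80.8 CPM in WT MEFs, 128 and 125 CPM without an sgRNA, 136 and 125 CPM with sgNT, and 155, 143, 145 and 160.0 CPM with sgBcl-2, with sgBcl-2 again above the other cassette-bearing groups (0.30 ± 0.076 (SE), adjusted p = 0.042 against sgNT) and overlapping libraries with sgNT and without an sgRNA. *Adamtsl2*, low at 0.265 and 2.70 CPM in WT MEFs, 0.689 and 0.602 CPM without an sgRNA, 0.341 and 0.124 CPM with sgNT, and 0.0432, 0.301, 0.202 and 0.343 CPM with sgBcl-2, was above 1 CPM only in the second WT library among the MEFs.

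Counted over the 37 genes tested between sgBcl-2 and sgNT, all sgBcl-2 libraries lay above both sgNT libraries for 7 genes and below both for 11, beside 13% and 30.9% of all genes tested. For sgNT against no sgRNA the groups did not overlap upwards for 14 and downwards for 11 of the 33 genes, beside 37.9% and 35.1% of all genes. The difference between the numbers 1 and 2 in the sgBcl-2 minus sgNT value (interaction term in limma) was called for 0 of the 37 genes and 0 of all 14676, with 3 of the 37 at an unadjusted p under 0.05, *Adamts2*, *Mmp3* and *Adamts15*, named after their values were seen.

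A direct comparison of sgBcl-2 MEFs with MEFs without an sgRNA was added after the values were seen. Of 39 genes tested 14 were called, 10 higher and 4 lower, a share of 35.9% beside 39.2% of all 14727 genes (19.8% higher and 19.5% lower). *Mmp19* (log2 difference 2.31 ± 0.19 (SE), adjusted p = 6.9e-05), *Adamts2* (1.95 ± 0.26 (SE), adjusted p = 0.000824), *Adamts9* (1.32 ± 0.13 (SE), adjusted p = 0.000168), *Adamts7* (1.27 ± 0.12 (SE), adjusted p = 0.000143) and *Adamtsl1* (1.04 ± 0.25 (SE), adjusted p = 0.0116) were higher with sgBcl-2. *Adamtsl4* (0.49), *Adamtsl5* (0.33), *Adamts1* (0.33) and *Mmp3* (1.93) were called higher as well. So was *Timp4*, with 6, 6, 19 and 13 reads in the sgBcl-2 libraries against 1 and 2 reads without an sgRNA, a group below 3 reads for which no fold is given. *Timp4* passed the filter only through the sgBcl-2 libraries, so that its direction was bound. Without *Timp4*, 13 genes were called. The lower genes were *Mmp17* (-1.78 ± 0.14 (SE), adjusted p = 6.81e-05), *Adamts20* (-1.63), *Mmp24* (-1.59) and *Mmp15* (-0.45). *Timp1* gave 0.56 ± 0.20 (SE), adjusted p = 0.0544 and *Timp2* 0.03 ± 0.12 (SE), adjusted p = 0.863, neither past the threshold. The count was 8 and 6 without the first and the second library without an sgRNA, and 4 with all 10 MEF libraries in 1 fit.

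The comparison of MEFs without an sgRNA with WT MEFs asks what the cassette changed, and that of sgNT MEFs with WT MEFs holds the sgRNA and its lentivirus in addition. The WT lines come from other embryos, so that line and cassette cannot be told apart in either. No gene was called by limma, edgeR or limma-voom, with 34 members tested without an sgRNA and 32 with sgNT (0% of 14546 and of 14560 genes). In simulated data with the means, depths and spread of sgNT against WT, limma called 0 of 100 genes changed 4-fold. A count of 0 there does not show that no gene differed. At an unadjusted p under 0.05 in limma, 2 members passed without an sgRNA and 4 with sgNT, beside 7.43% and 4.05% of all genes. They were *Mmp2* (0.73 ± 0.20 (SE), adjusted p = 0.642) and *Adamtsl3* (1.17 ± 0.32 (SE), adjusted p = 0.645) without an sgRNA, and *Adamtsl3*, *Adamts9*, *Mmp2* and *Adamts3* with sgNT (adjusted p = 0.8 for *Adamts9*). The WT libraries themselves differed. Of 33 members with at least 1 CPM in the higher WT library, 23 were at least 2-fold (69.7%) and 16 at least 4-fold apart (48.5%), against 34.2% and 13.1% of 14199 genes. The libraries without an sgRNA were at least 2-fold apart for 0 of 30 members, beside 0.829% of all genes, and the sgNT libraries for 1 of 30, beside 1.45%. Higher in the first WT library by at least 4-fold were *Timp1*, *Timp2*, *Adamts1*, *Adamts2*, *Adamts12*, *Adamtsl4*, *Mmp16*, *Mmp23* and *Mmp28*. Higher in the second were *Mmp3*, *Mmp10*, *Mmp12*, *Mmp13*, *Adamts8*, *Adamts15* and *Adamtsl2*. Endothelial markers summed to 54.6 CPM and epithelial markers to 62.5 CPM in the second WT library, against at most 18.7 and 15.9 CPM in the other MEF libraries. Without the second WT library 21 of 34 members were called without an sgRNA, 10 higher and 11 lower than WT, beside 31.8% of all genes (16.8% higher and 15% lower). With sgNT 12 of 32 were called, 9 higher and 3 lower, beside 11.2% of all genes (6.52% higher and 4.67% lower). Without the first WT library 27 of 40 were called without an sgRNA, 19 higher and 8 lower, beside 55.1% (28.3% higher and 26.8% lower). With sgNT the count was then 26 of 41, 21 higher and 5 lower, beside 53.4% (26.9% higher and 26.5% lower). In these fits the single WT library is assumed to vary like the other group. A gene that passed their filter through 1 group alone was bound to be lower in the other, so that these counts are partly fixed. Without the first WT library this holds for *Mmp12*, with 3426 reads in the second. It had 2 and 1 reads without an sgRNA and 4 and 1 reads with sgNT.

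Partners of these enzymes at the cell surface were taken from a list of 31 genes. Between sgBcl-2 and sgNT, 5 of 30 tested were higher and 1 was lower, beside 6.61% and 4.24% of all genes. *Plau*, the urokinase that generates plasmin, was higher (0.62 ± 0.10 (SE), adjusted p = 0.0111), as were *Serpinb2*, which inhibits it (2.27 ± 0.42 (SE), adjusted p = 0.0152), and the cathepsins *Ctsk* (0.60), *Ctsl* (0.34) and *Ctsb* (0.51). *Pcsk6*, a proprotein convertase, was lower (-0.64 ± 0.13 (SE), adjusted p = 0.0192). For sgNT against no sgRNA 9 of 30 were higher and 11 lower, beside 20.3% and 20.9% of all genes, with *A2m*, a general protease trap, at 3.63 ± 0.27 (SE), adjusted p = 7.33e-05 and *Plat*, the tissue plasminogen activator, at 2.22 ± 0.18 (SE), adjusted p = 0.000101. *Plaur*, the urokinase receptor (-1.54), *Plau* (-1.36) and *Adam12* (-1.15) were lower. Without the first or the second sgNT library 1 and 0 partners were called against sgBcl-2. With all 10 MEF libraries in 1 fit 0 were called for sgBcl-2 against sgNT, and 2 higher and 2 lower for sgNT against no sgRNA. The median log2 difference of the partners was 0.19 and 0.11 in these comparisons.

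Of 19 matrix substrates, 17 were tested between sgBcl-2 and sgNT, where *Dcn* (1.33 ± 0.30 (SE), adjusted p = 0.0287), *Vcan* (0.94 ± 0.15 (SE), adjusted p = 0.00938) and *Fbn1* (0.49) were higher and *Col2a1* (-0.96 ± 0.17 (SE), adjusted p = 0.0128) was lower, beside the same 6.61% and 4.24% of all genes. For sgNT against no sgRNA 8 of 18 were higher and 3 lower, beside 20.3% and 20.9%. *Dcn*, the collagen-binding proteoglycan decorin, gave 2.86 ± 0.19 (SE), adjusted p = 4.62e-05. *Vcan*, the versican that several ADAMTS proteases cut, gave 1.02 ± 0.13 (SE), adjusted p = 0.000701, and *Acan*, the cartilage aggrecan, gave -2.65 ± 0.52 (SE), adjusted p = 0.00569. *Col2a1*, the collagen of cartilage, gave -2.62 ± 0.17 (SE), adjusted p = 4.59e-05. *Col2a1* and *Acan* are among the cartilage and bone markers above. Without either sgNT library 1 substrate was called between sgBcl-2 and sgNT, and 2 without the first line 2 sgBcl-2 library. Without the second library lacking an sgRNA 4 were higher and 3 lower with sgNT than without an sgRNA. With all 10 MEF libraries in 1 fit the calls were 0 for sgBcl-2 against sgNT, and 1 higher and 1 lower for sgNT against no sgRNA. The medians were 0.05 for sgBcl-2 against sgNT and 0.31 for sgNT against no sgRNA.

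All 7 subunits of AP-1 were tested. Between sgBcl-2 and sgNT 5 were higher, beside 6.61% of all genes, with *Fos* at 2.78 ± 0.29 (SE), adjusted p = 0.00225, *Junb* at 1.55 ± 0.22 (SE), adjusted p = 0.0067, *Fosl1* at 1.10, *Jun* at 0.75 and *Jund* at 0.37. For sgNT against no sgRNA 6 were lower, beside 20.9% of all genes, with *Junb* at -1.27 ± 0.079 (SE), adjusted p = 3.78e-05 and *Fos* at -1.17 ± 0.20 (SE), adjusted p = 0.00321. *Fos* was at 6.15 and 3.42 CPM in WT MEFs, 10.3 and 8.69 CPM without an sgRNA, 3.56 and 4.92 CPM with sgNT, and 22.7, 19.1, 38.4 and 35.2 CPM with sgBcl-2. The sgBcl-2 libraries were the highest of the cassette-bearing MEFs and the sgNT libraries the lowest. Between sgBcl-2 and sgNT 2 subunits were called without either sgNT library. With all 10 MEF libraries in 1 fit 3 were higher in that comparison, and 2 were lower for sgNT against no sgRNA. A relation between these levels and the chromosome 9 genes with the element was not tested.

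In the B cell malignancies most of the 51 genes were near 0. Against sgBcl-2 MEFs, which carry the same cassette and target, 31 of the 51 genes passed the filter over both groups, and they were called, 30 lower and 1 higher in the 6 lymphoma lines, beside 81.3% of all 14620 genes (45% lower and 36.3% higher). A gene that passes the filter through 1 group alone is bound to be lower in the other. For 20 of the 31 no library of the lower group reached the filter's level of 10 reads at the median depth, so that these counts describe the genes tested and support nothing further. Of the 30 genes, 9 were under 3 reads in every line, *Adamts2*, *Adamts3*, *Adamts9*, *Adamts12*, *Adamtsl1*, *Adamtsl3*, *Mmp3*, *Mmp16* and *Mmp28*. All lines were below all sgBcl-2 MEFs for 27 genes, beside 38.9% of all genes. Cell type and culture differ together with the group. TIMP reads relative to MMP and ADAMTS reads gave a ratio of between 0.0135 and 0.192 in the lines and of 0.0110 and 0.0178 in the primary tumours, against 1.39 to 3.40 in MEFs.

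The 7 genes with a mean of at least 1 CPM in the lymphoma lines were *Adamts6*, *Adamts10*, *Adamts14*, *Mmp11*, *Mmp14*, *Timp2* and *Adamtsl4*. *Adamts10* was at 30.05, 37.6, 32.6 and 30.4 CPM in the IgM+ lines, 31.2 and 39.2 CPM in the IgM- lines, 82.4 and 45.8 CPM in the tumours, and 37.5 and 56.2 CPM in preB-ALL. Of the 30 genes called lower it had the smallest log2 difference to sgBcl-2 MEFs, -0.55 ± 0.13 (SE), adjusted p = 0.00328, and it gave -0.10 ± 0.18 (SE), adjusted p = 0.676 to preB-ALL. *Adamts6* was at 5.56, 11.7, 5.12 and 6.17 CPM in the IgM+ lines, 4.45 and 5.00 CPM in the IgM- lines, 13.9 and 21.1 CPM in the tumours, and 2.14 and 10.6 CPM in preB-ALL. The tumours overlapped with sgBcl-2 MEFs, and the lines lay below them (-1.41 ± 0.23 (SE), adjusted p = 0.000215). *Adamts14* was at 13.3, 4.09, 1.55 and 3.24 CPM in the IgM+ lines, 0.938 and 0.991 CPM in the IgM- lines, 8.28 and 48.5 CPM in the tumours, and 4.28 and 4.01 CPM in preB-ALL. One IgM+ line and both tumours were far above the IgM- lines, and the difference of the 6 lines to sgBcl-2 MEFs was -2.61 ± 0.65 (SE), adjusted p = 0.00348. *Mmp11* read 5.72, 7.16, 3.83 and 3.44 CPM in the IgM+ lines, 0.117 and 1.16 CPM in the IgM- lines, 3.24 and 2.94 CPM in the tumours, and 24.8 and 32.1 CPM in preB-ALL. The IgM+ lines and tumours lay between the IgM- lines and preB-ALL, with a log2 difference of -3.26 ± 1.22 (SE), adjusted p = 0.0596 between lines and preB-ALL.

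*Mmp14* varied widely among lymphoma libraries, at 39.3, 3.94, 0.0379 and 0.0996 CPM in the IgM+ lines, 0.117 and 0.0431 CPM in the IgM- lines, 0.482 and 19.2 CPM in the tumours, and 106 and 75.0 CPM in preB-ALL. One IgM+ line and 1 tumour were above 10 CPM, and 4 lines were at or near the level of 3 reads or below it. *Timp2* was at 0.689, 2.25, 8.00 and 4.18 CPM in the IgM+ lines, 0.703 and 2.54 CPM in the IgM- lines, 0.876 and 1.89 CPM in the tumours, and 178 and 67.7 CPM in preB-ALL. Each lymphoma line held it at a small part of the MEF level, and preB-ALL lay between. *Adamtsl4* was at 0.73, 0.675, 0.986 and 3.63 CPM in the IgM+ lines, 0.156 and 0 CPM in the IgM- lines, 0.701 and 0.499 CPM in the tumours, and 6.21 and 4.17 CPM in preB-ALL, highest in 1 IgM+ line. *Adamtsl2* was at 0.487, 0.525, 1.10 and 1.24 CPM in the IgM+ lines, 1.33 and 0.733 CPM in the IgM- lines, 0.745 and 0.449 CPM in the tumours, and 1.00 and 4.09 CPM in preB-ALL. It was the only gene called higher in lymphoma lines than in sgBcl-2 MEFs (1.54 ± 0.40 (SE), adjusted p = 0.0044), at levels of about 1 CPM. With 1, 8, 5 and 8 reads in the sgBcl-2 MEFs it passed the filter only through the lines, so that its direction was bound. Of the inhibitors, *Timp1* was between 0.075 and 0.388 CPM and *Timp3* between 0.273 and 1.16 CPM in the lines, and *Timp4* was at 0 in all 6.

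**Figure D5:**
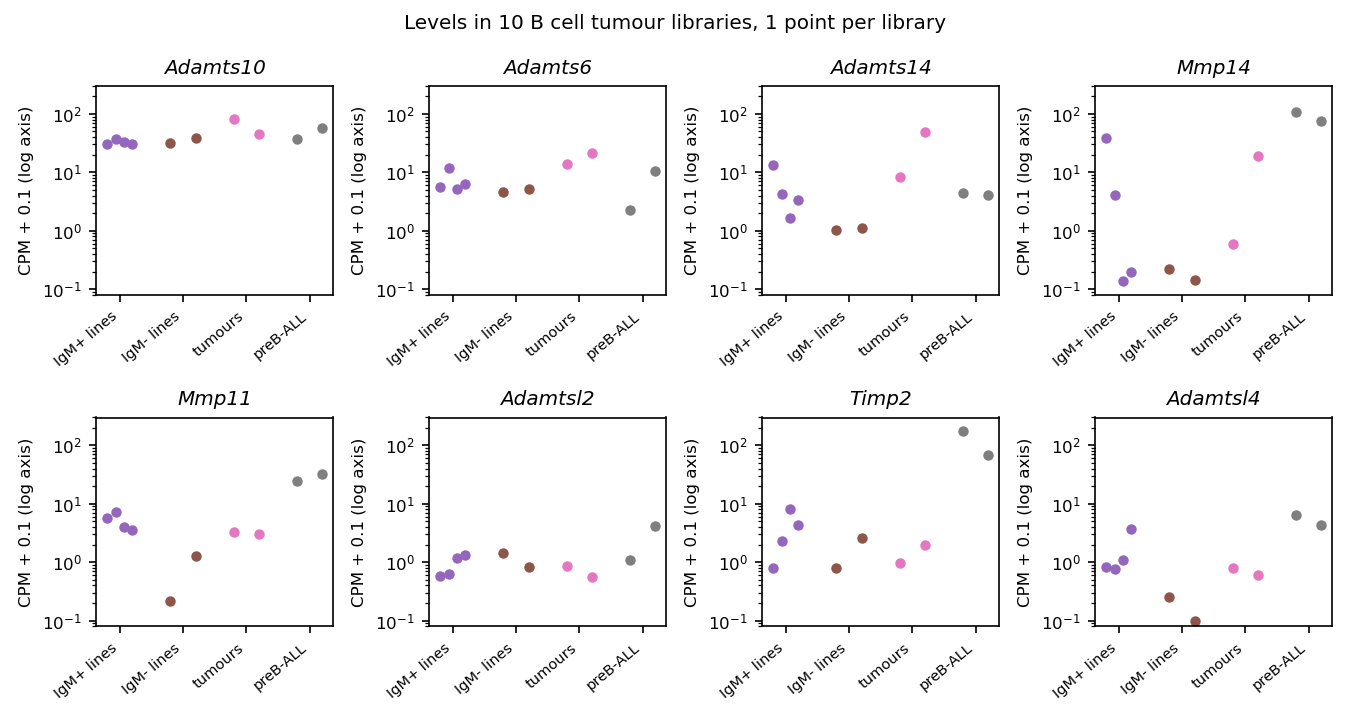
CPM + 0.1 (log axis) of 8 protease and inhibitor genes in the IgM+ lines, IgM- lines, primary tumours and preB-ALL libraries, one point a library. Adamts10 stays within 30.05 to 82.4 CPM in all libraries, while Mmp14 spans 0.0379 to 106 CPM and Timp2 is highest in preB-ALL.

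Against preB-ALL, 23 of the 51 genes passed the filter over both groups and 15 were called, each of them lower in the lymphoma lines, beside 43.4% of all 13961 genes (22.5% lower). Here too a gene that passes only through preB-ALL is bound to be lower in the lines, as holds for 12 of the 15, and the count supports nothing further. They were *Timp1*, *Timp2*, *Timp3*, *Mmp2*, *Mmp14*, *Mmp15*, *Mmp16*, *Mmp19*, *Mmp23*, *Adamts1*, *Adamts4*, *Adamts5*, *Adamts12*, *Adamtsl3* and *Adamtsl5*, of which *Adamts12*, *Adamtsl3* and *Mmp16* were under 3 reads in every line. *Timp2* was at 178 and 67.7 CPM, *Mmp14* at 106 and 75.0 CPM, *Mmp2* at 123 and 64.9 CPM and *Adamts1* at 96.9 and 24.4 CPM in the preB-ALL libraries. In each case the first preB-ALL library was above the second and both were above all lines. Fibroblast markers summed to 5914 and 2649.8 CPM in the same libraries, in the same order, against 5.95 to 88.6 CPM in the lines, and cartilage and bone markers to 732 and 389.7 CPM against at most 1.24 CPM. Their part in these differences was not tested. The preB-ALL RNA was made with another kit and run, and all 15 mitochondrial genes were at 0% of its reads, so that disease and processing cannot be told apart. Of the remaining genes, *Mmp9* (gelatinase B, known from neutrophils) ranged over 0 to 0.117 CPM in the lines and 0.172 to 0.836 CPM in MEFs, and *Mmp21* over 0 to 0.156 CPM and 0 to 0.146 CPM.

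Between the 2 primary tumours and the 2 lines of the same mice, 10 genes were tested and 0 were called by limma, edgeR and limma-voom, beside 0.33% of 12719 genes (0.267% higher and 0.0629% lower). *Mmp11* alone passed an unadjusted p under 0.05 in limma (-1.07 ± 0.36 (SE), adjusted p = 0.167). The labels give the tumours' mouse numbers differently in title and description. With the title's numbers as a replicate block 3 genes were called by limma, *Adamts10* (adjusted p = 0.0356) and *Adamts14* (adjusted p = 0.0294) higher and *Mmp14* (adjusted p = 0.0416) lower in the tumours, and with the description's numbers none. Macrophage markers summed to 28.2 and 19.4 CPM in the tumours and to between 2.07 and 6.15 CPM in the lines, and fibroblast markers to 319 and 45.0 CPM in the tumours and 6.20 and 88.6 CPM in the lines of these mice, which overlap. Of the fibroblast markers, *Thy1*, *S100a4* and *Sparc* had the highest means in the tumours (91.0, 59.1 and 28.7 CPM). *Col1a1*, *Col1a2* and *Fn1* had means of 0.612, 0.634 and 1.35 CPM there, below those of the lines.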

How the data were processed

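The 51 genes and the lists of partners, substrates, AP-1 subunits and cell markers were chosen with earlier results of these data known. RNA-seq was done on 20 libraries, and per the labels and methods the authors aligned the reads to GRCm38, counted them per Entrez gene and deposited CPM, each column scaled to 1e+06 reads. Whether counting used strand is not given in the sources used here, so overlapping genes are uncertain. *Mmp1a* and *Mmp1b* are close copies and may share reads. Whole reads were recovered from the CPM steps (100% of values within 0.01 of a whole read) and give the depth. On these reads edgeR called 1554 of 14676 genes for sgBcl-2 against sgNT and 6034 of 14655 for sgNT against no sgRNA. Symbols and promoters came from RefSeq GRCm38.p6, which matched 25242 of 25869 identifiers, and exon lengths came from GENCODE.

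Each fit held just the libraries of the groups compared. Genes that passed filterByExpr were scaled by TMM and tested with limma 3.58.1 (lmFit, eBayes with trend) in R 4.3.3 on log2(CPM + 0.1), with Benjamini-Hochberg adjustment over all genes tested and a threshold of 0.05. Alternatives were edgeR 4.0.16 and limma-voom on recovered reads, a pseudocount of 0.5 CPM, no filter, no scaling, all 10 MEF or 8 dCas9a-SAM KI/+ libraries in 1 fit, a replicate block, sgBcl-2 libraries averaged per line, and each library left out. Chosen after seeing the data were sgBcl-2 against no sgRNA, and preB-ALL without mitochondrial genes. Scripts were tested on simulated data, and figures used matplotlib 3.10.9.

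Every member is named. Values per library are given for the TIMP genes, for members called between MEF groups, for the 12 highest in MEFs, for those with a mean of at least 1 CPM in the lymphoma lines and for those at least 4-fold apart between WT libraries. Ranges are given for the rest, and from other lists called genes are named, up to 6 each, with 1 gene that the rule covers not reported here. Depth limits are counting error only.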

Additional observations from a re-analysis of the deposited data

Results flagged for a closer look

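For 1 of 37 genes in the 4 sgBcl-2 MEF libraries and 4 of 7 in the 6 lymphoma lines, 1 library stood apart from the others by a gap that took up most of the group's range (Dixon's criterion, by which chance marks about 1 in 20). The 7 genes were those with a mean of at least 1 CPM in the lines, which 1 high library can bring about, so that their share is not to be read against chance. In sgBcl-2 MEFs, *Adamts15* was at 3.88 CPM in the first library of line 2 and between 0.648 and 1.03 CPM in the other 3, a gap of 0.882 of the range. In the lymphoma lines, *Mmp14* was at 39.3 CPM in the first IgM+ line and between 0.0379 and 3.94 CPM in the other 5 (0.901 of the range). *Adamts14* was highest in the same line, at 13.3 CPM against 0.938 to 4.09 CPM (0.746). *Adamts6* was at 11.7 CPM in the second IgM+ line against 4.45 to 6.17 CPM (0.761). *Adamtsl4* was at 3.63 CPM in the fourth IgM+ line against 0 to 0.986 CPM (0.729).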

How the results depend on the processing

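No called difference of a member changed direction under an alternative. Of 145 differences of tested members that were not called, 60 changed sign under at least 1 alternative, 3 of them without scaling. In the comparisons among dCas9a-SAM KI/+ MEFs those that changed sign were at most 0.23 in size, and *Timp2* for sgBcl-2 against no sgRNA went from 0.03 to -0.05 without scaling. With all 10 MEF libraries in 1 fit, which lets the spread between the WT libraries enter, the number of members called was 0 for sgBcl-2 against sgNT, 4 for sgNT against no sgRNA, 1 for no sgRNA against WT, 2 for sgNT against WT and 4 for sgBcl-2 against no sgRNA. With each library left out in turn it ranged from 0 to 11, 15 to 20, 0 to 27, 0 to 26 and 6 to 15 in the same order. The number in the MEF titles is shared by the 3 dCas9a-SAM KI/+ groups, but the labels do not state that it pairs them. The deviations of same-numbered libraries correlated across 14676 genes at -0.05 (no sgRNA and sgNT), -0.14 (no sgRNA and sgBcl-2) and 0.36 (sgNT and sgBcl-2), beside 0.05, 0.07 and 0.20 of the WT pair with these groups in the order no sgRNA, sgNT and sgBcl-2. With the number as a replicate block the count was 15, 19 and 14 for sgBcl-2 against sgNT, sgNT against no sgRNA and sgBcl-2 against no sgRNA. For sgBcl-2 against sgNT it added *Mmp3* (adjusted p = 0.00703 with limma), *Mmp14* (adjusted p = 0.028) and *Adamtsl3* (adjusted p = 0.0392), and for sgNT against no sgRNA *Mmp14* (adjusted p = 0.0809), *Adamts4* (adjusted p = 0.0523) and *Adamts3* (adjusted p = 0.0665) were no longer called. Without the first line 1 sgBcl-2 library 4 members were called against sgNT. For the primary tumours the replicate block by the title's mouse numbers gave 3. Other counts stayed within 1.5 times. Without scaling the median of all genes moved by 0.18 between lymphoma lines and sgBcl-2 MEFs and by -0.36 against preB-ALL, and the calls of members kept their direction. Genes under 3 reads in a group were too low for a difference to be read.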
